A study of Drosophila melanogaster with 2 samples.

Results

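The euchromatic part of chromosome arm 2L held 326 of the 6387 regions enriched in phosphorylated histone H3 threonine 3 (H3T3ph) in S2 cells, which is 5.10% of the list and 48.2% of the 676 regions listed on 2L. Its members are the regions of 2L whose midpoint lies below 21 Mb in dm3, the genome build of the deposited list, counted from the telomere. The data came from S2 cells, an embryonic line of *Drosophila melanogaster* grown in Schneider's medium with serum. DNA immunoprecipitated (IP) with a rabbit antibody to H3T3ph (Millipore 04-746) gave 1 ChIP-seq library, and input DNA gave another. The libraries held 21013056 IP reads and 23747069 input reads, totals that follow from the reads and the RPKM values (reads scaled to the length of the region and the size of the library) listed for each region. The members held 91077 IP reads and 78852 input reads, or 0.433% and 0.332% of these totals. Each library was made once, so that the values below have no replicates and no p-values were computed from them. The 95% intervals compare these 2 libraries, and not conditions, and with 1 library of each kind they hold for counting error alone. They treat each read as independent. The authors took out reads amplified in excess, and any PCR copies that remained were not marked.

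Histone H3 is phosphorylated at threonine 3 by the kinase haspin. The mark is best known from mitosis, when it is concentrated at centromeres and recruits the chromosomal passenger complex through its subunit survivin. A chromosome arm of *Drosophila* runs from a gene-rich euchromatic part to pericentromeric heterochromatin, which is rich in repeats, in methylation of H3 lysine 9 and in the protein HP1a. In euchromatin, long silent domains can lie against the nuclear lamina or carry Polycomb repression. The labels name no sorting of the S2 cells by cell cycle stage, and mitotic and interphase chromatin cannot be told apart in these libraries.

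The list names no genes, and no dm3 sequence or annotation was used here, so the regions are given by their coordinates on 2L, counted from 1, and no sequence is printed. The width of a region is the length listed for it, and the covered length is the sum of these widths. The ratio of a region is its IP RPKM over its input RPKM. Pooled ratios are the summed IP reads over the summed input reads, each scaled to its library, with exact (Clopper-Pearson) intervals.

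H3T3ph regions were found along the whole euchromatic arm, but the sequence that they covered was gathered in its centromere-side part. The 326 regions covered 321.4 kb, which is 1.53% of the 21 Mb, with 15.5 regions per Mb. Between 14 and 18 Mb the list had 127 regions, 39.0% of the members, and these made up 72.4% of the covered length. That stretch had 31.8 regions and 58.2 kb covered per Mb. Another rise in number, between 3 and 5 Mb, had 27.5 regions per Mb but covered 5.73 kb per Mb. These 2 stretches and those around them were delimited after the values had been seen.

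The rest of the arm was sparser. From the telomere to 3 Mb there were 16 regions, or 5.33 regions per Mb, and they covered 0.860 kb per Mb. Between 5 and 11 Mb there were 55 regions, or 9.17 regions per Mb, covering 2.25 kb per Mb. The stretch from 11 to 14 Mb had 29 regions and 9.41 kb covered per Mb, and the last one, from 18 to 21 Mb, had 44 regions and 10.97 kb covered per Mb. Within it the covered length fell away before the border, to 4.88 kb in the last Mb although 20 regions lay there, with a median width of 68.5 bp. Among the 21 bins of 1 Mb, the number of regions was lowest in the bins from 8 to 9 Mb and from 12 to 13 Mb, with 3 regions each, and highest from 17 to 18 Mb with 41. That last bin also had the largest covered length, 85.4 kb, against 0.150 kb in the first bin of the arm.

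**Figure D1:**
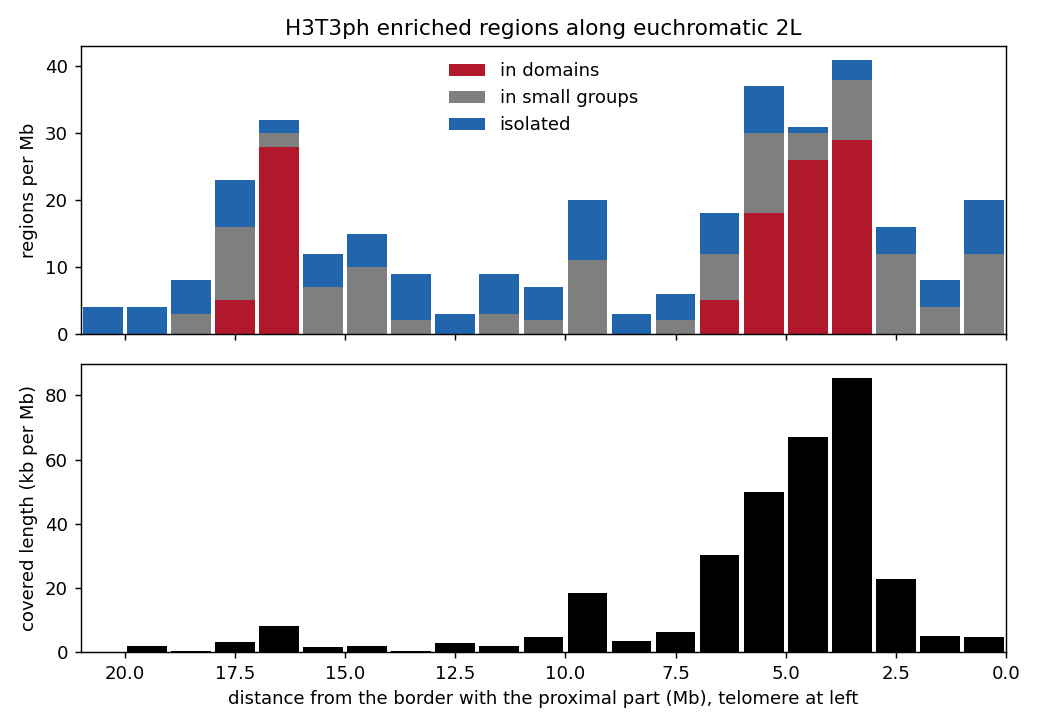
Regions per Mb (upper panel, divided by setting) and covered length in kb per Mb (lower panel) in bins of 1 Mb along euchromatic 2L, plotted by distance from the border with the proximal part in Mb. The numbers have peaks of 32 regions on the telomere side and 41 regions on the centromere side, whereas the covered length has 1 main peak, of 85.4 kb, on the centromere side.

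The regions on the 2 sides of 10.5 Mb, the middle of the 21 Mb, differed in width. On the centromere side 205 regions had a median width of 968 bp (quartiles of 438 and 1897 bp), whereas on the telomere side 121 regions had a median width of 68 bp (quartiles of 9 and 204 bp). Regions wider than 1600 bp numbered 62 of 205 on the centromere side and 1 of 121 on the telomere side. Regions of at most 50 bp numbered 14 on the centromere side and 58 on the telomere side. The centromere side held 92.8% of the covered length. The input level moved with this contrast, since the median input RPKM per region was 8.93 on the centromere side and 3.51 on the telomere side, while the median IP RPKM was 13.1 on the centromere side and 15.9 on the telomere side. At equal width the input levels were closer. Between 400 and 800 bp the pooled input RPKM was 8.74 on the centromere side and 7.28 on the telomere side, and between 200 and 400 bp it was 6.80 on the centromere side and 7.30 on the telomere side. The part of input depth in the difference in width was not tested.

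To separate grouped from isolated regions, a domain was taken to be a series of 5 or more consecutive regions with gaps of up to 25 kb. An isolated region has no neighbor within 25 kb, and all others form small groups of 2 to 4. Euchromatic 2L had 13 domains with 111 regions, which is 34.0% of the members (95% Wilson interval from 29.1 to 39.4%). The 45 small groups (29 of 2 regions, 9 of 3 and 7 of 4) held 113 regions, and 102 regions were isolated. Domains made up 48.6% of the covered length, small groups 29.4% and isolated regions the rest. Domains were found in 2 stretches alone, with 3 of them between 3 and 5 Mb and 10 between 14 and 18 Mb. Each of the other stretches of the arm had only small groups and isolated regions by this definition. When the list was restricted to regions at or below its median p-value as given by the authors, 61 of the 326 members were left. None of them formed a domain. The same restriction kept 3224 regions of the whole list, or 50.5%. With a largest gap of 10 kb there were 5 domains with 11.7% of the members, and with 50 kb there were 18 with 59.5%.

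The 10 domains between 14 and 18 Mb were made of wide regions. Their median region widths lay between 667 and 2089 bp, and the covered share of their length was between 9.16 and 34.3%. Each of them held at least 1 region wider than 1600 bp, and together they held 32 such regions among 78. Their pooled ratios were between 1.19 and 1.43. The longest of the 10, from 15935381 to 16107411, had 18 regions between 479 and 6622 bp wide, 21.4% of its length covered and a pooled ratio of 1.25 (1.21 to 1.28). Its regions were uneven along its 172.0 kb. The widest, from 16057576 to 16064197, had 1739 IP and 1711 input reads and lay 338 bp from another of 5679 bp, so that the pair covered 97.3% of 12.6 kb at a pooled ratio of 1.15 (1.10 to 1.21). The longest gap in this domain, 22.4 kb, preceded the region at 16039988.

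A further 3 of these 10 domains had at least 8 regions. The domain from 15779780 to 15840747 had 9 regions of 433 to 3720 bp (median 993 bp), 13410 bp covered, 14.8 regions per 100 kb and a pooled ratio of 1.31 (interval from 1.26 to 1.38). In the domain from 17073601 to 17139257, 10 regions covered 15.1% of 65.7 kb, and the pooled ratio of 1.43 (interval from 1.34 to 1.52) was the highest of the 10. This domain also held the only 2 of their 78 regions with a width below 200 bp, of 1 and 103 bp. The domain from 17257562 to 17359888 had 8 regions that covered 30.1% of 102.3 kb, with the lowest pooled ratio of the 10, 1.19 (interval from 1.15 to 1.22). Most of its covered length lay at its right end, where 3 regions of 14237, 1209 and 7336 bp followed each other with gaps of 31 and 24 bp. Joined, they spanned 22.8 kb (17337052 to 17359888), with 7756 IP reads, 7528 input reads and a ratio of 1.16 (1.13 to 1.20). No other region followed for 166.4 kb. The most covered domain, from 16935067 to 16990972, had 34.3% of its 55.9 kb covered by 7 regions, whose pooled ratio was 1.23 (interval from 1.18 to 1.28). It held the region of 7109 bp from 16943349 to 16950457 (1714 IP and 1656 input reads), which in width came after those of 14237 and 7336 bp among the members.

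The 3 domains between 3 and 5 Mb were made of narrower regions. Their median region widths were 154, 27 and 93 bp, and regions covered 2.15, 2.42 and 2.35% of their length. None of their 33 regions was wider than 1115 bp, and 15 were at most 50 bp wide. The domain with the most regions in euchromatic 2L, from 4472326 to 4625698, was 1 of these 3. Its 21 regions had a pooled ratio of 1.93 (1.74 to 2.14). Of these, 11 were at most 50 bp wide and 8 had no input read. Its widest regions, of 903, 993 and 648 bp, had ratios of 1.40, 1.42 and 1.55, with 217, 207 and 154 IP reads beside 175, 165 and 112 input reads. The next domain began 34.7 kb farther on, at 4660397, and had 7 regions over 96.2 kb with a pooled ratio of 1.68 (interval from 1.47 to 1.93). The 10 domains between 14 and 18 Mb and these 3 did not overlap in their values of covered share, median width or pooled ratio. The 2 sets were delimited after the values had been seen. Covered share and ratio both move with the width of the regions, so these differences are not separate from one another. The intervals of the pooled ratio did overlap, with 1.34 to 1.52 for the domain at 17073601 and 1.47 to 1.93 for that at 4660397. Numbers of regions per 100 kb overlapped as well, with 6.82 to 15.2 in the 10 and 7.28 to 13.7 in the 3. Domains in the euchromatic parts of other arms did not all fall into 1 of these 2 sets. On 3L, the domain from 13528992 to 13797562 had a median width of 329 bp, 11.2% covered and a pooled ratio of 1.71. On 3R, the domain from 23274396 to 23331438 had a median width of 706 bp, 18.6% covered and a pooled ratio of 1.53.

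**Figure D2:**
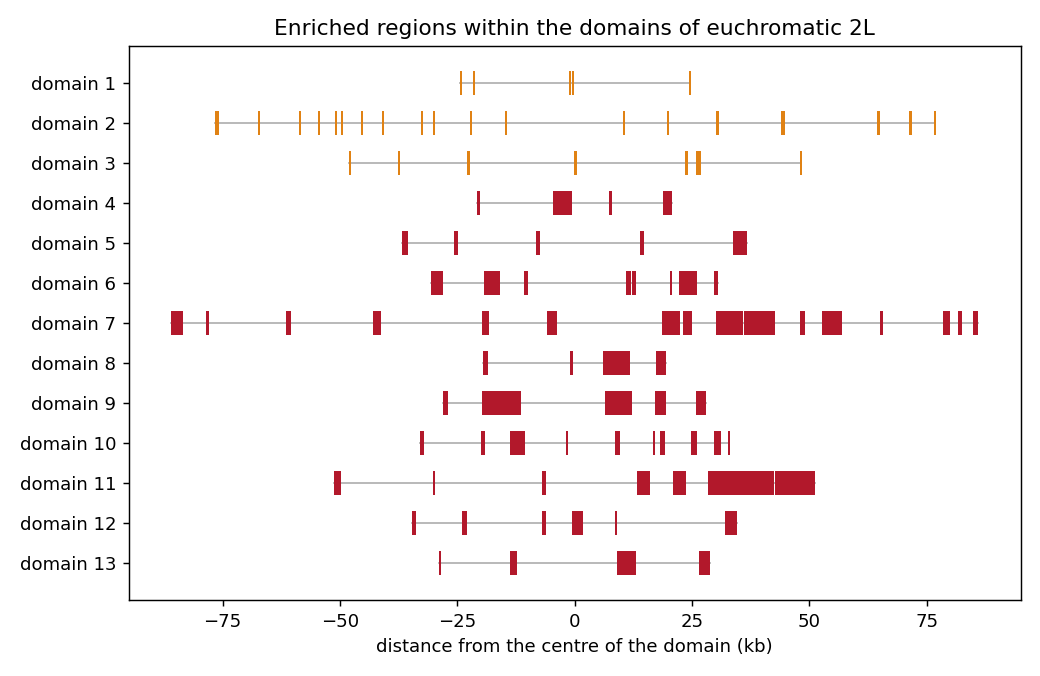
The 13 domains of euchromatic 2L in order from the telomere, with each enriched region drawn as a block at its distance in kb from the centre of its domain (widths to scale, except that regions under 0.5 kb are drawn as 0.5 kb). Domains 1 to 3 (orange), between 3 and 5 Mb, hold regions of at most 1115 bp, whereas each of domains 4 to 13 (red), between 14 and 18 Mb, holds a region wider than 1600 bp.

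Levels of the 2 libraries in the domains followed the same division. Pooled over the regions of a domain, the IP level was between 11.1 and 15.2 RPKM in the 10 domains between 14 and 18 Mb and between 11.5 and 12.2 RPKM in the 3 domains between 3 and 5 Mb. The input level was between 7.96 and 12.7 RPKM in the 10 and between 5.72 and 6.82 RPKM in the 3. The IP levels thus overlapped and the input levels did not. Regions of equal width differed less. For widths between 800 and 1600 bp, the pooled input level was 9.98 RPKM over 26 regions in the 10 domains and 7.68 RPKM over 3 regions in the 3, beside pooled ratios with overlapping intervals, 1.38 (1.33 to 1.42) in the 10 and 1.40 (1.25 to 1.57) in the 3.

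Very close neighbors made up a small part of the members. Of 325 gaps between consecutive regions, 25 were at most 1 kb long, 51 at most 5 kb and 166 at most 25 kb. Joining regions within 500 bp left 303 blocks, of which 21 held more than 1 region (19 of 2 and 2 of 3), 15 of them on the centromere side and 6 on the telomere side. After joining, 9 blocks were longer than 5 kb. Counted in blocks instead of regions, the arm had 9 domains, which held 26.4% of the blocks.

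Over the whole of euchromatic 2L, regions in domains were wider than isolated ones, but position along the arm moved with this contrast. The median width was 924 bp in domains (quartiles of 218 and 1891 bp), 374 bp in small groups and 288 bp in isolated regions (quartiles of 39 and 936 bp). In domains 28.8% of regions were wider than 1600 bp and 14.4% were at most 50 bp wide, whereas among isolated regions these shares were 10.8 and 29.4%. Of the regions in domains 78 of 111 lay on the centromere side, and of isolated regions 52 of 102. Within a side the medians were closer. On the centromere side they were 1175 bp in domains and 810 bp in isolated regions, and on the telomere side 93 bp in domains and 75.5 bp in isolated regions. Wide regions were not restricted to domains. The widest isolated region, from 14502222 to 14508634, was 6413 bp wide with 1705 IP and 1675 input reads, and the next, from 15485814 to 15491811, was 5998 bp wide with 1531 IP and 1490 input reads.

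Long stretches had no region at all. The longest, of 847.7 kb, lay between 7790750 and 8638449, and the next, of 593.5 kb, between 18512261 and 19105756, beyond the stretch with the most covered length. A total of 55 gaps were longer than 100 kb. The most isolated region, from 12311201 to 12312300, lay 356.5 kb from its nearest neighbor and had 360 IP and 303 input reads, a ratio of 1.34 (interval from 1.15 to 1.57). The first region of the arm, of 2 bp at 547691, had 10 IP reads and no input read. At the border of 21 Mb, the last region inside, from 20784821 to 20784962, had 37 IP and 16 input reads, and the first outside, from 21118194 to 21124919, had 1872 IP and 1828 input reads. The gap of 333.2 kb between them means that no domain crossed the border.

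The ratio fell with the width of the region. Pooled over all members of a class of width, it was 24.2 up to 50 bp (interval from 17.4 to 34.6, regions with no input read included), 2.91 from 50 to 200 bp, 1.87 from 200 to 400 bp, 1.53 from 400 to 800 bp, 1.36 from 800 to 1600 bp and 1.21 above 1600 bp (interval from 1.20 to 1.23). Within classes the spread was wide among narrow regions and small among wide ones. Single ratios lay between 6.03 and 14.7 up to 50 bp, where 41 of 72 regions had no input read, and between 1.95 and 6.40 from 50 to 200 bp. They lay between 1.27 and 1.55 for the 62 regions from 800 to 1600 bp and between 1.14 and 1.44 for the 63 wider ones. The input level moved with this fall. From 50 bp to over 1600 bp the pooled IP level stayed between 12.8 and 13.6 RPKM, whereas the pooled input level rose in the same 5 classes, through 4.62, 6.99, 8.37 and 9.74 to 11.2 RPKM. Listed regions had to pass a threshold on a p-value (Benjamini-Hochberg below 0.05), which a region with few reads passes only at a large ratio. Among members with up to 20 IP reads and an input read, the lowest ratio was 5.09, and among those with more than 1000 IP reads it was 1.14.

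**Figure D3:**
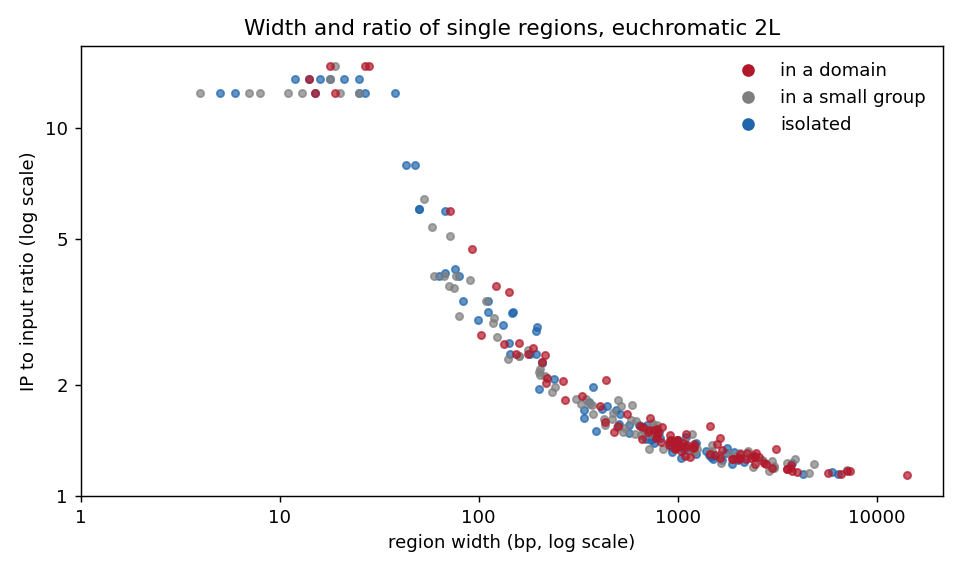
Width in bp and IP to input ratio of the 285 members with at least 1 input read, both on log scales, with each point a region in a domain, in a small group or isolated. The regions in these 3 settings lie in the same band, which falls to ratios of at most 1.44 above 1600 bp. All of them had to pass the p-value threshold of the list, which bounds the band from below.

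**Figure D4:**
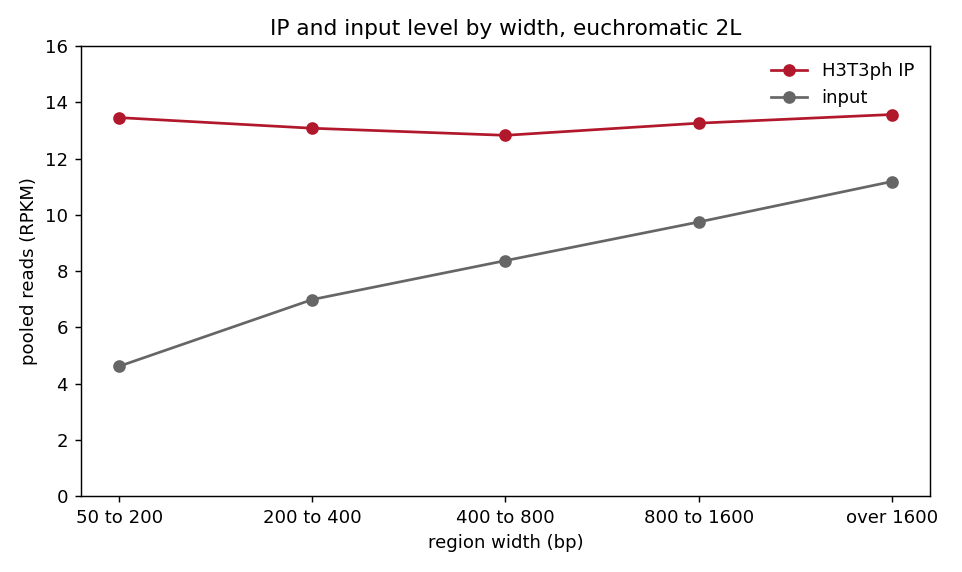
Pooled IP and input level in RPKM of the members in 5 classes of width above 50 bp. The IP level stays between 12.8 and 13.6 RPKM, and the input level is 4.62 RPKM in the narrowest of these classes and 11.2 RPKM in the widest.

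At equal width, the ratios of regions in domains and of isolated regions did not differ beyond counting error in any of the 6 classes, in each of which the interval of their odds ratio included 1. From 50 to 200 bp the pooled ratio was 2.92 in domains (10 regions, interval from 2.39 to 3.58) and 2.88 in isolated regions (19 regions, interval from 2.50 to 3.32). From 400 to 800 bp it was 1.54 in domains (17 regions, interval from 1.46 to 1.63) and 1.51 in isolated regions (16 regions, interval from 1.43 to 1.60). Above 1600 bp both had 1.21, with intervals from 1.19 to 1.23 in domains (32 regions) and from 1.17 to 1.24 in isolated regions (11 regions). Combined over the 6 classes as a Mantel-Haenszel odds ratio on the reads, the ratio in domains was 1.01 times that of isolated regions (interval from 0.988 to 1.04, which includes 1). On the centromere side alone this value was 1.01 (interval from 0.985 to 1.04), and on the telomere side it was 1.08 (interval from 0.976 to 1.19). Without regard to width the ratio in domains was 0.943 times that of isolated regions. No difference in ratio between domains and isolated regions was thus detectable at equal width among listed regions. Regions of both kinds had to pass the same p-value threshold, which sets the lowest ratio that a given number of reads can have. Near-equal ratios at equal width can follow from that threshold, so the comparison cannot show whether the 2 kinds are equally enriched.

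**Figure D5:**
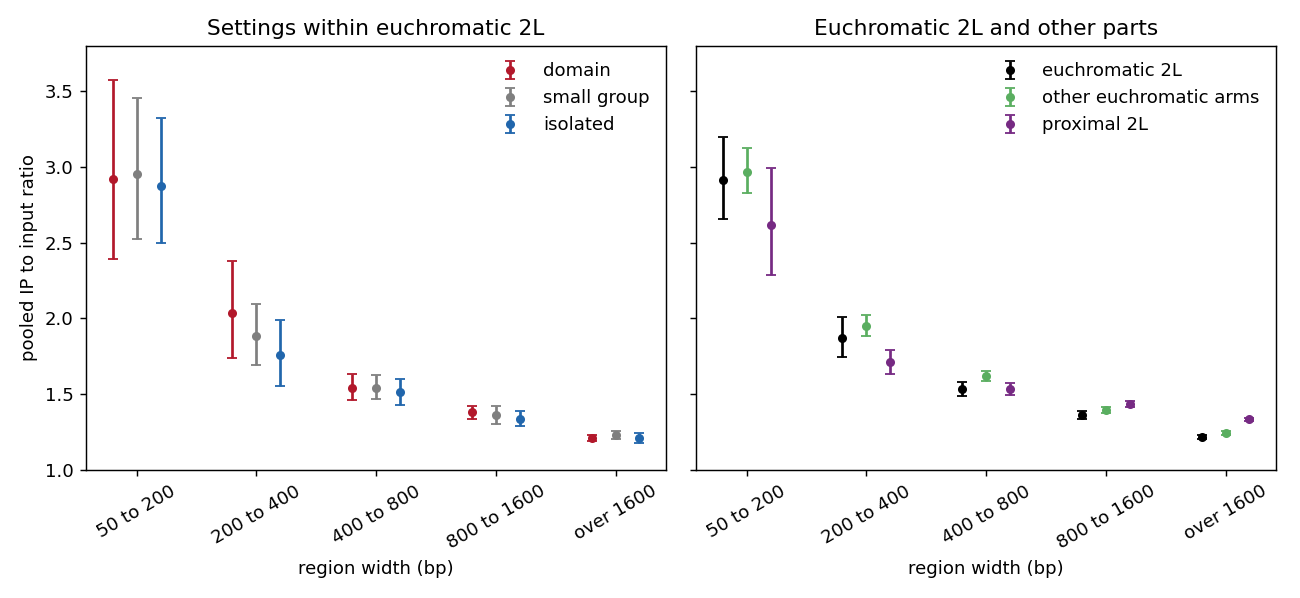
Pooled IP to input ratio (vertical axis) by class of region width in bp, for regions above 50 bp, with bars for the 95% exact intervals on the reads, in euchromatic 2L divided by setting (left panel) and in euchromatic 2L, the other euchromatic arms and proximal 2L (right panel). The intervals of domain and isolated regions overlap in each class, whereas above 1600 bp euchromatic 2L, at 1.21, lies below proximal 2L, at 1.33.

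Euchromatic 2L was then compared with the proximal part of the same arm, the 1.98 Mb from 21 Mb to the end of the last region on 2L, which held 350 regions. The density was 15.5 regions per Mb in euchromatic 2L and 176.4 regions per Mb in proximal 2L, a ratio of 0.0880 (interval from 0.0755 to 0.103, which treats regions as independent, as neighbors are not). Regions covered 1.53% of the length of euchromatic 2L and 30.5% of that of proximal 2L. The median gap was 24.4 kb in euchromatic 2L and 0.320 kb in proximal 2L, so that 34.0% of regions in euchromatic 2L and 99.1% in proximal 2L lay in domains by the definition above. Median widths were 527 bp in euchromatic 2L and 1372 bp in proximal 2L. Of the euchromatic members 18.7% were at or below the median p-value of the list, against 72.3% of proximal regions. Over the whole list this share was 50.5%. It was also 18.7% over the euchromatic parts of 3L, 3R and X together, so the low share was not particular to 2L.

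The ratio at equal width was lower in euchromatic 2L than in proximal 2L among wide regions, and not among narrow ones. Above 1600 bp it was 1.21 in euchromatic 2L (interval from 1.20 to 1.23) and 1.33 in proximal 2L (interval from 1.32 to 1.34), and from 800 to 1600 bp it was 1.36 in euchromatic 2L (1.33 to 1.39) and 1.43 in proximal 2L (1.41 to 1.45). From 400 to 800 bp both had 1.53. From 200 to 400 bp the direction was the opposite, with 1.87 in euchromatic 2L and 1.71 in proximal 2L, an odds ratio of 1.10 (interval from 1.01 to 1.19). From 50 to 200 bp the odds ratio was 1.11 (0.948 to 1.31). Combined over all classes, most reads of which lie in wide regions, the odds ratio of euchromatic over proximal regions was 0.930 (interval from 0.919 to 0.940). Input depth moved with this contrast too. From 800 to 1600 bp the pooled input level was 9.74 RPKM in euchromatic 2L and 13.8 RPKM in proximal 2L, beside IP levels of 13.3 RPKM in euchromatic 2L and 19.7 RPKM in proximal 2L. From 200 to 400 bp the pooled input level was 6.99 RPKM in euchromatic 2L and 11.9 RPKM in proximal 2L. At equal width a region with more reads passes the p-value threshold of the list at a smaller ratio. The part of this higher depth and of the threshold in the differences in number, width and ratio was not tested.

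Set beside the euchromatic parts of 3L, 3R and X (without the 2 Mb next to the centromere, 945 regions over 68.7 Mb), euchromatic 2L had a larger covered share. The density of 15.5 regions per Mb stood beside 13.8 regions per Mb over the 3 arms together, a ratio of 1.13 (interval from 0.991 to 1.28). Arm by arm, the density of euchromatic 2L was 1.01 times that of 3L (0.866 to 1.18), 1.24 times that of 3R (1.06 to 1.45) and 1.14 times that of X (0.972 to 1.35), so that only the interval against 3R excluded 1. Covered shares were 1.53% in euchromatic 2L and 1.08% on 3L, 1.23% on 3R and 0.286% on X. The median width was 527 bp in euchromatic 2L, against 438 bp on 3L, 652 bp on 3R and 50 bp on X. Input level moved with these contrasts, since the median input RPKM per region was 7.34 in euchromatic 2L, 6.57 on 3L, 7.34 on 3R and 3.01 on X. This median moves with width as well, and is not a measure of the depth of a whole arm. Regions of at most 50 bp made up 50.5% on X and 22.1% in euchromatic 2L. The part of input depth in the differences in covered share, width and grouping between arms was not tested. Domains held 34.0% of the regions of euchromatic 2L (interval from 29.1 to 39.4%) and 36.4% of those of 3L (interval from 31.5 to 41.6%), 29.5% of those of 3R (interval from 24.8 to 34.7%) and 14.1% of those of X (interval from 10.5 to 18.7%). Isolated regions made up 31.3% in euchromatic 2L and between 32.5 and 34.2% on the other arms. At equal width the ratio in euchromatic 2L was 0.974 times that of the other arms (interval from 0.962 to 0.986). This small difference did not hold with the border at 22 Mb, which takes in proximal regions, where the value was 0.999 (0.989 to 1.01). The class with the lowest odds ratio was that from 400 to 800 bp, at 0.947 (0.912 to 0.983). Its pooled ratios were 1.53 in euchromatic 2L (interval from 1.48 to 1.58) and 1.62 on the other arms (interval from 1.59 to 1.65). Above 1600 bp the odds ratio was 0.978 (0.963 to 0.993). In each of the other classes of width its interval included 1. The pooled input level was higher in euchromatic 2L than on the other arms in each class above 200 bp. It was lower in the narrower classes. From 400 to 800 bp it was 8.37 RPKM in euchromatic 2L and 7.60 RPKM on the other arms. At equal width a region with more reads passes the p-value threshold of the list at a smaller ratio. The part of input depth and of the threshold in the difference in ratio was not tested.

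The widest region of the whole list lay in euchromatic 2L, at 17337052 to 17351288. Its 14237 bp had 4721 IP and 4660 input reads, the lowest ratio of all members at 1.14 (interval from 1.10 to 1.19) and their lowest p-value in the authors' list, 6.23e-09. The next lowest of the authors' p-values belonged to a region of 7078 bp at 17985733 to 17992810 (2845 IP and 2727 input reads, 1.09e-07) and to one of 1455 bp at 17733490 to 17734944 (404 IP and 295 input reads, 2.07e-06). Among members of at least 400 bp the highest ratio was 2.07 (interval from 1.51 to 2.85) at 17569416 to 17569853, where 117 IP and 64 input reads lay. The next were 1.82 (interval from 1.38 to 2.43) from 3350507 to 3351007 and 1.76 (interval from 1.33 to 2.36) from 20312309 to 20312901. Their intervals overlap, so the order of these 3 is not resolved.

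No input read was listed for 41 members. Their widths had a median of 3 bp and a range of 1 to 29 bp, and 34 of them had 10 IP reads, the lowest number in the list. Of the 41, 10 lay in domains, 17 in small groups and 14 were isolated, and 10 lay on the centromere side and 31 on the telomere side. These regions are set apart by their lack of input reads, so that no ratio or bound is given for them. With so few reads, only regions with no or few input reads could pass the threshold of the list.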

How the data were processed

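The study measured H3T3ph by ChIP-seq with a pair of libraries, IP and input. Single reads were aligned to dm3 by the authors (Bowtie 0.12.5), who kept unique placements, which leaves out repeats with identical copies. After taking out reads amplified in excess and correcting the shift between strands, they found enriched regions with htSeqTools. The deposited list holds raw read counts of both libraries, RPKM values of each, and 1 p-value a region adjusted after Benjamini and Hochberg, all made by the authors. Columns carry no names, and the pair with the higher RPKM in every region was read as the IP. The region positions, another kind of value, were used as deposited, since each width equals end minus start plus 1.

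Members were grouped by gaps, and pooled ratios, exact and Wilson intervals and Mantel-Haenszel odds ratios (Robins-Breslow-Greenland interval, 6 classes of width) were computed in Python 3.11.15 (scipy 1.17.1, numpy 2.4.6, pandas 2.3.3; figures with matplotlib 3.10.9). The code was tested on simulated data. The depth is 21013056 IP and 23747069 input reads. The members and definitions were chosen with earlier results of these data known. Regions were named by rule (domains of at least 8 regions, the 3 widest, the 3 of lowest p-value with input reads, the 3 highest ratios at 400 bp or more, the most isolated, the longest gap and the neighbors of the border). Other single regions, the most covered domain and the divisions of the arm were chosen after their values were seen. Alternatives were other gaps, numbers, borders and classes, parts of the list, joined regions and covered bp.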

Additional observations from a re-analysis of the deposited data

How the results depend on the processing

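The main limits are 1 library of each kind, a list limited by a p-value and a domain definition set by hand. No paired analysis was possible because there was 1 IP and 1 input library and no result came from a test. The density of 15.5 regions per Mb was 2.90 among regions at or below the median p-value (the better part), 9.90 for regions of at least 200 bp and 20.5 with the border at 22 Mb, which takes in proximal sequence. The 13 domains became 0 in the better part, 5 with a gap of 10 kb, 29 with at least 3 regions and 3 with at least 10, and stayed between 9 and 18 under the other alternatives. The share in domains, 34.0%, was 0% in the better part, 26.4% with joined regions, 11.7% with a gap of 10 kb, 59.5% with 50 kb, 50.9% with at least 3 regions, 15.0% with at least 10 and 51.7% with the border at 22 Mb. The median width in domains stayed between 2.40 and 4.78 times that of isolated regions over both sides of the arm together. In the better part neither this value nor the odds ratio of domain over isolated regions could be had, as no domain was left. That odds ratio was 0.980 with a gap of 10 kb (interval from 0.954 to 1.01), and its interval included 1 under every alternative that gave a value. The odds ratio of euchromatic 2L over the other arms was 0.932 in the better part and 0.999 with the border at 22 Mb (interval from 0.989 to 1.01), so that this small difference ends there. Without X, an alternative chosen after seeing the data, it was 0.981. Over proximal 2L it was 0.906 in the better part and 0.907 in classes of reads. The density ratio of euchromatic over proximal 2L was 0.0228 in the better part, 0.0592 for regions of at least 200 bp, 0.180 with joined regions, 0.123 with the border at 20 Mb and 0.0502 in covered bp. Some alternatives used fewer regions, and the causes of these shifts were not tested.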
